A study of Homo sapiens with 12 samples.

Results

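Interferon-stimulated effector genes outside the OAS, IFIT, MX and ISG15 families were followed in pancreatic cancer cells given an isoform of the transcription factor p63. The set held 42 genes of the 39099 obtained by summing transcripts to genes, and all 42 were among the 14767 genes tested. The members were listed by name, with no threshold on a value, and were selected on a result of these libraries, the lower abundance of interferon-stimulated genes in ASPC1 cells with a p63 construct than in ASPC1 control cells. Values for those ASPC1 comparisons are therefore given as a description. The PANC1 comparisons, the promoter sequences and the isoforms were not used in that choice.

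The libraries came from ASPC1 and PANC1, established human pancreatic cancer cell lines. Each line was measured as Mock control cells, cells with TAp63 overexpression (TAp63 O/E in the labels) and cells with deltaNp63 overexpression (deltaNp63 O/E), with 2 biological replicates in each of the 6 groups and 12 libraries in all. TAp63 carries the full amino-terminal transactivation domain of p63, and deltaNp63 starts from an internal promoter and lacks it. How the constructs were delivered, for how long, and whether cells were cloned are not given in the sources used here, and p-values measure only the spread between replicates that may share a culture. Abundance is in TPM, a relative transcript abundance that sums to 1000000 in each library, so read depth is unknown and a lower value cannot be told apart from fewer expressing cells.

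TP63 was measured first as a check of the labels. It stood at 1.1 and 0.817 TPM in ASPC1 Mock, at 102 and 170 TPM with TAp63 and at 245 and 350 TPM with deltaNp63. In PANC1 it stood at 0.119 and 0.0245 TPM in Mock, at 324 and 342 TPM with TAp63 and at 815 and 1187 TPM with deltaNp63. Every library with a construct was thus far above its Mock libraries, and TP63 abundance was higher in the deltaNp63 than in the TAp63 libraries of both lines. TP63 was summed over its transcripts, so this check does not show which p63 isoform a library carried. The epithelial markers KRT8, KRT18 and KRT19 lay between 707 and 3738 TPM in all libraries, and EPCAM lay between 1256 and 1410 TPM in ASPC1 but between 42.6 and 49.5 TPM in PANC1. Of the leukocyte markers, PTPRC and CD3E were at most 0.0552 TPM, while CD68 lay between 90.8 and 288 TPM; VWF and CDH5 of endothelium were at most 0.278 TPM. In ASPC1 CD68 stood at 115 and 126 TPM in Mock, 96.8 and 106 TPM with TAp63 and 91.9 and 90.8 TPM with deltaNp63, an order that follows that of the members, while PTPRC was at most 0.0102 TPM; the part of CD68-expressing cells in the members' values was not tested. KRT8 was lowest in ASPC1 deltaNp63 replicate 1, at 2034 TPM against 3177 to 3738 TPM in the other ASPC1 libraries. Of 4 fibroblast markers, LUM lay between 177 and 288 TPM in ASPC1 and COL1A1 between 80.8 and 111 TPM in PANC1, and COL1A2 and DCN were below 1 TPM in both.

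Interferons are secreted when a cell senses foreign or misplaced nucleic acid. Type I interferons (alpha, beta) and type III interferons (lambda) act through receptor-bound JAK kinases on STAT proteins, which join IRF9 to form the ISGF3 complex. ISGF3 binds the interferon-stimulated response element in promoters, and the gamma-activated sequence is the element through which interferon gamma acts. The members act downstream, as RNA-binding proteins, nucleotide enzymes, ADP-ribosyl transferases, ubiquitin ligases, nuclear body proteins and membrane-associated proteins that restrict viruses or alter immune signalling and cell survival. In carcinoma cells many of these genes can be expressed without added interferon.

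The promoters were examined for the sequence that ISGF3 recognises, whose letters the choice of members did not use. The members were listed as interferon-stimulated genes, a class on which ISGF3 acts. A high share with this sequence was therefore built into the list and is given as a description. RefSeq promoter windows of 300 bases (250 before and 50 after an annotated start, GRCh38.p14) were found by symbol for 34 of the 42 members; PML, LAMP3, APOL1, APOL2, APOL6, TRIM22, GBP2 and PARP10 had none in the table. The response element core was searched as GAAANNGAAA on either strand. It was present in a window of 20 of the 34 members (58.8%), against 4.38% of the 27305 genes in the promoter table and 3.57% of all 35116 windows. Of 39 other interferon pathway genes with a window, 18 (46.2%) held a core. The gamma-activated sequence, searched as TTCNNNGAA, which reads the same on either strand, was present in 10 of the 34 members (29.4%) and in 9.38% of all genes in the table. A match shows only that these letters are in the window.

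The core lay close to the start in most of the 20 genes. Of 24 cores counted by gene, 20 began before the RefSeq start, 15 of them within the last 100 bases, and 4 began after it. DDX60, DDX60L, RTP4 and TRIM21 each had 2 cores, and the pair in TRIM21 overlapped. The following stretches are printed 5′ to 3′ on the strand of the gene with the core in capitals. They show 3 of the genes in which the 100 bases before the start held a core and lay outside the gene's own GENCODE v44 model.
RTP4 (chr3:187368285-187368384, plus strand): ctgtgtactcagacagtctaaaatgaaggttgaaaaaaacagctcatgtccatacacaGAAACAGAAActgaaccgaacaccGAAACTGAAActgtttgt
PARP14 (chr3:122680739-122680838, plus strand): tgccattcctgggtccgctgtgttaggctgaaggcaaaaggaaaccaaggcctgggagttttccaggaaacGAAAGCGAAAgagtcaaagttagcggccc
TRIM14 (chr9:98119223-98119322, minus strand): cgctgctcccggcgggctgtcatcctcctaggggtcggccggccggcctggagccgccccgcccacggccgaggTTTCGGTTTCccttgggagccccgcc

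Sites of 30 bases, with 10 bases on each side of the core, are shown for 9 more genes to compare members with large, middling and small changes in ASPC1 and to show a core that 2 genes share.
DDX60, first core (chr4:168318821-168318850, minus strand): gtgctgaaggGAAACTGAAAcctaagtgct
DDX60, second core (chr4:168318786-168318815, minus strand): gaggagaaagGAAACCGAAActcccgccgg
DDX60L, first core (chr4:168480553-168480582, minus strand): gaaaactgcgGAAATCGAAAaggcctcgcg
DDX60L, second core (chr4:168480523-168480552, minus strand): gtggagaaaaGAAACCGAAActaactccct
DTX3L, shared with PARP9 (chr3:122564322-122564351, plus strand): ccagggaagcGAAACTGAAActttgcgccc
RSAD2 (chr2:6877622-6877651, plus strand): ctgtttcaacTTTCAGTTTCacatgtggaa
EIF2AK2 (chr2:37156967-37156996, minus strand): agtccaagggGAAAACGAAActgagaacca
EPSTI1 (chr13:42992272-42992301, minus strand): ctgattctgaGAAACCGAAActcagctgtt
GBP1 (chr1:89065316-89065345, minus strand): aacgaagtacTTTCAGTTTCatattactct
GBP3 (chr1:89022845-89022874, minus strand): aaagaagtacTTTCAGTTTCattaggctct
TRIM5 (chr11:5685082-5685111, minus strand): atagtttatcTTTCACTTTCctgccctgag

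PARP9 and DTX3L are divergent genes, and the core at positions 122564332 to 122564341 of chromosome 3 fell in a RefSeq window of both. The cores of GBP1 and GBP3 carried the same 10 letters. The sizes of the ASPC1 changes overlapped between members with and without a core. With deltaNp63 the 20 members with a core had a median log2 fold change of -0.96 (range -1.87 to -0.30), and the 14 with a window but no core had -0.88 (range -2.91 to -0.44). CMPK2, XAF1 and RNF213, 3 of the members with large changes, had no core in their windows, whereas DDX60L had 2 cores and the smallest change among members with a core. In PANC1 the medians with deltaNp63 were 0.02 with a core and 0.01 without. The map of core positions shows where each core lies.

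**Figure D1:**
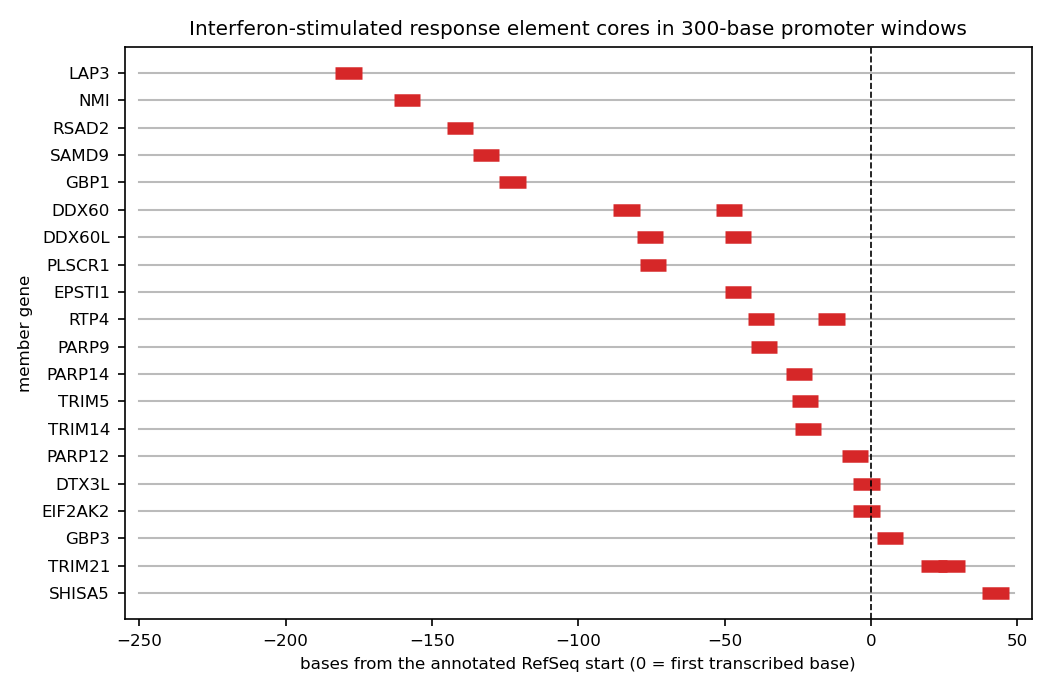
Position of each interferon-stimulated response element core (red, 10 bases) in the RefSeq promoter windows of the 20 members that held one; the horizontal axis is the distance in bases from the annotated start, the grey lines are the 300-base windows, and genes are in the order of their first core. Of 24 cores, 20 begin before the dashed line that marks the start, and the core of DTX3L is the same stretch of genome as that of PARP9.

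In ASPC1 Mock cells the members ranged from TRIM22, with a mean of 3.7 TPM, to PLSCR1, with 403 TPM, around a median of 50.2 TPM. Their summed abundance was 2985 and 3216 TPM in the Mock libraries, 1955 and 2108 TPM with TAp63 and 1777 and 1730 TPM with deltaNp63. The ASPC1 sums did not overlap between the 3 groups, and the construct means were 65.5% and 56.6% of the Mock mean. In PANC1 the sums were 3577 and 3626 TPM in Mock, 3627 and 3411 TPM with TAp63 and 3544 and 3855 TPM with deltaNp63, and there the groups overlapped. The construct means in PANC1 were 97.7% and 103% of Mock. The plot of abundance by library shows this for each gene.

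**Figure D2:**
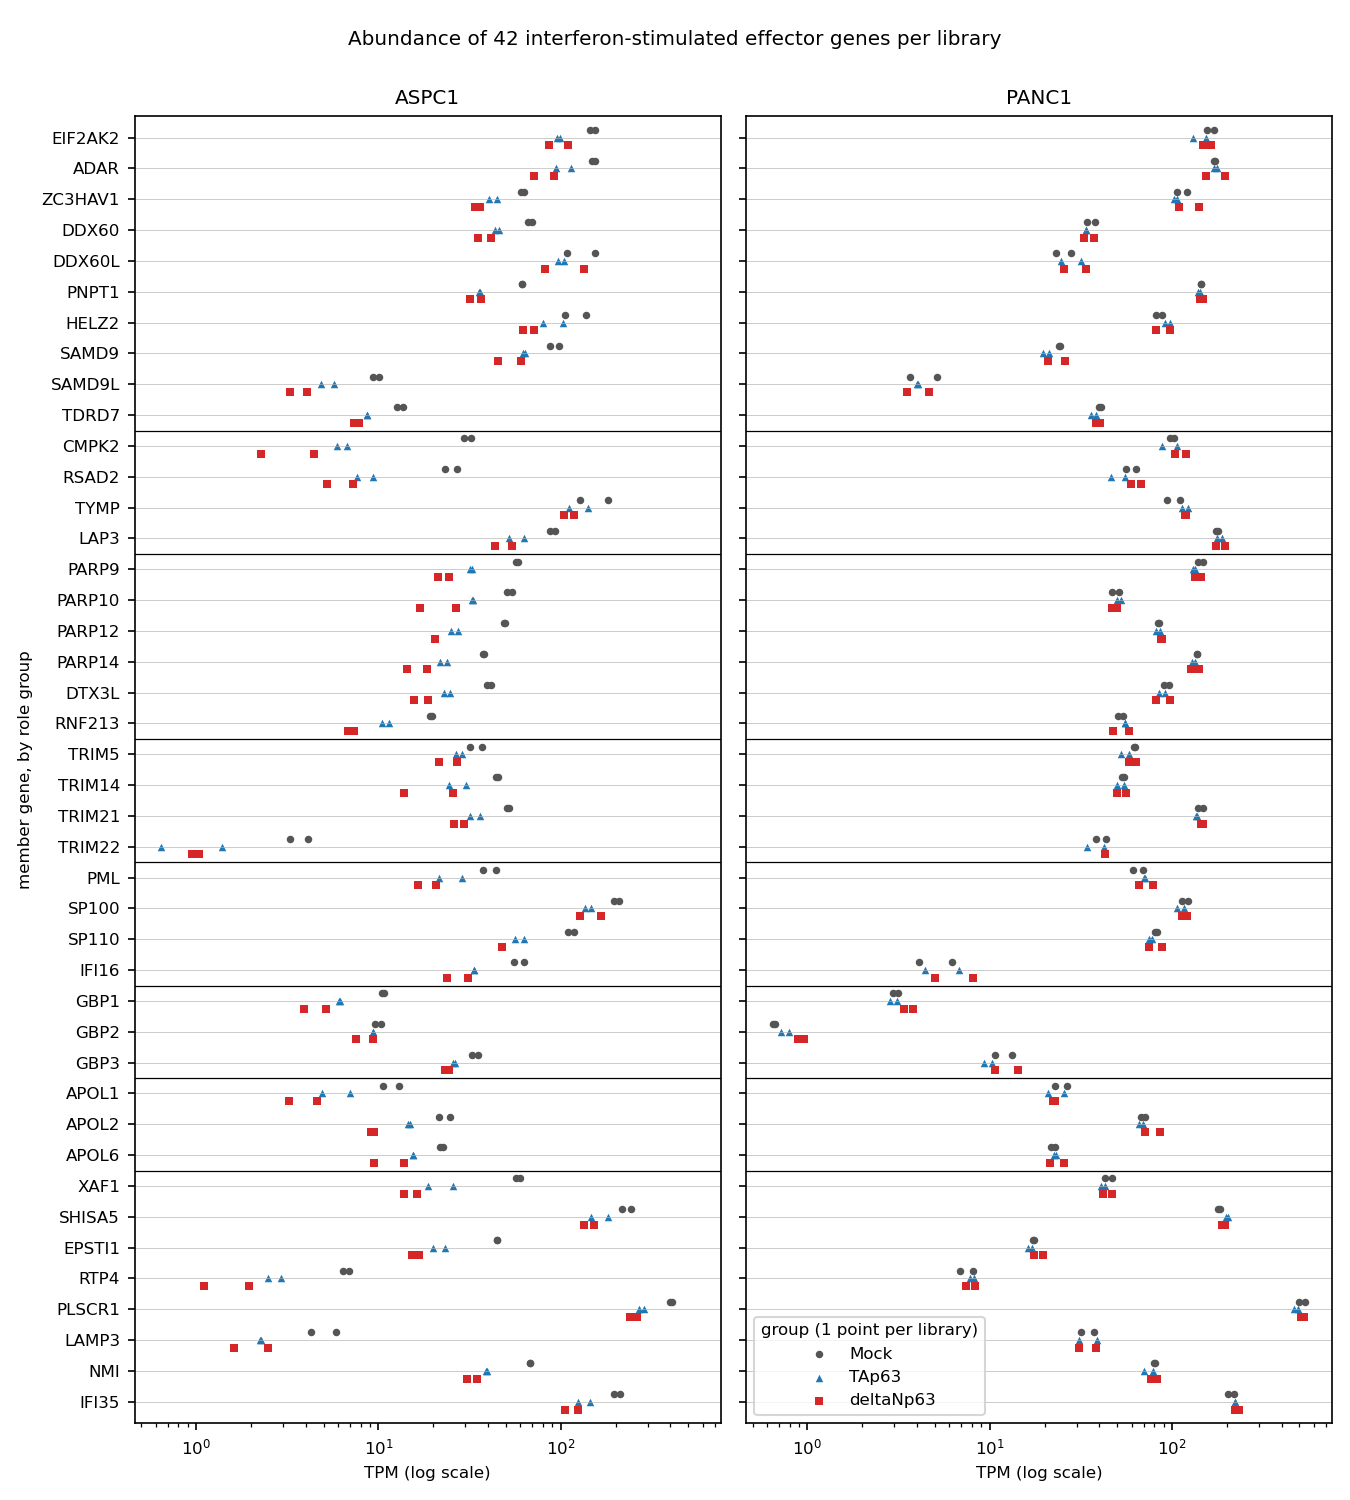
TPM (log scale) of the 42 members in each library of ASPC1 (left) and PANC1 (right), 1 point per library, with horizontal lines between the 8 role groups. In ASPC1 the Mock points lie to the right of the TAp63 points for 41 of 42 genes and of the deltaNp63 points for 41 of 42; in PANC1 the points of the 3 groups lie together.

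By limma on log2(TPM + 1), with Benjamini-Hochberg adjustment over all tested genes and a threshold of 0.05, 20 of the 42 members fell with TAp63 in ASPC1, where 0.609% of all tested genes fell. With deltaNp63 38 of 42 fell, against 6.51% of all tested genes. These counts describe the values the members were chosen by. All 20 members called with TAp63 were also called with deltaNp63, 18 were called with deltaNp63 alone, and DDX60L, TYMP, GBP2 and GBP3 were called with neither. The median log2 fold change of the members was -0.67 with TAp63 (all tested genes -0.08) and -1.02 with deltaNp63 (all tested genes -0.12). Both contrasts share the same 2 Mock libraries. With deltaNp63 22 members had a mean under 50% of Mock, and with TAp63 7 did. The share of all tested genes under that level is not given here, so these counts only describe the members.

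Each TAp63 library was below each Mock library for 41 of the 42 members in ASPC1, with TYMP as the exception, and this order held for 35.4% of all tested genes. Each deltaNp63 library was below each Mock library for 41 members, with DDX60L as the exception, against 41.1% of all tested genes. The counts of calls rest on the spread shared over all 12 libraries: with only the groups compared or only the 6 ASPC1 libraries in the model, 0 members passed for either construct, although by limma 37 and 35 members had an unadjusted p under 0.05 with TAp63 and 39 and 39 with deltaNp63. Fewer members passed when any 1 replicate of the compared groups was left out. The median member log2 fold change with TAp63 was -0.69 without Mock replicate 1 and -0.65 without Mock replicate 2. It was -0.62 without TAp63 replicate 1 and -0.70 without TAp63 replicate 2. With deltaNp63 the median was -1.07 without Mock replicate 1 and -0.95 without Mock replicate 2. It was -0.93 without deltaNp63 replicate 1 and -1.08 without deltaNp63 replicate 2. Over all genes, 94 rose and 961 fell with deltaNp63, and this split was 249 to 170 after each library was centred on its median, which moved the median of all genes from -0.12 to 0.09; 32 members still fell.

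The nucleotide and peptide enzymes held the largest changes. CMPK2 is a mitochondrial nucleotide kinase that lies beside RSAD2, the gene of viperin, which makes a chain-terminating nucleotide; the GENCODE v44 models of the pair overlap at their outermost 5′ ends. The RSAD2 core printed above lies in the window of a RefSeq start further downstream. CMPK2 stood at 32.4 and 29.4 TPM in ASPC1 Mock, 6.72 and 5.93 TPM with TAp63 and 2.27 and 4.45 TPM with deltaNp63. The 3 groups did not overlap, and the log2 fold changes were -2.12 ± 0.203 (SE) with TAp63 and -2.91 ± 0.203 with deltaNp63, the largest of the members for each construct. In PANC1 CMPK2 stood at 97.1 and 103 TPM in Mock, 106 and 88.3 TPM with TAp63 and 104 and 119 TPM with deltaNp63. RSAD2 had 33.8% and 24.7% of its ASPC1 Mock mean with the 2 constructs, and it fell with each. LAP3, a leucine aminopeptidase, fell with deltaNp63 to 53.9% of Mock. TYMP, thymidine phosphorylase, stood at 127 and 182 TPM in ASPC1 Mock, 111 and 141 TPM with TAp63 and 119 and 104 TPM with deltaNp63, and its log2 fold changes of -0.28 ± 0.17 and -0.44 ± 0.17 did not pass. The gene body of TYMP overlaps SCO2 and ODF3B, so the assignment of its reads is uncertain. In PANC1 TYMP stood at 94.3 and 110 TPM in Mock, 123 and 113 TPM with TAp63 and 118 and 120 TPM with deltaNp63.

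The RNA-binding and translation-control members changed less. Of these 10 genes 3 fell with TAp63 (DDX60, PNPT1 and TDRD7) and 9 fell with deltaNp63, with group medians of -0.55 and -0.81. SAMD9L, a paralogue of SAMD9 that restrains poxvirus growth and cell proliferation, stood at 10.1 and 9.34 TPM in ASPC1 Mock, 5.68 and 4.84 TPM with TAp63 and 4.07 and 3.26 TPM with deltaNp63. Its groups did not overlap, and its log2 fold change of -1.20 ± 0.168 with deltaNp63 was the largest of the role group. In PANC1 SAMD9L stood at 3.66 and 5.13 TPM in Mock, 4.05 and 3.97 TPM with TAp63 and 3.53 and 4.63 TPM with deltaNp63, values that overlap. DDX60L, a helicase-like paralogue of DDX60, had the smallest change of the role group. It stood at 108 and 155 TPM in ASPC1 Mock, 104 and 96.1 TPM with TAp63 and 135 and 81.5 TPM with deltaNp63. The 2 deltaNp63 libraries of DDX60L lay on either side of Mock replicate 1, and its log2 fold change was -0.30 ± 0.25. In PANC1 DDX60L stood at 23 and 27.8 TPM in Mock, 31.7 and 24.5 TPM with TAp63 and 25.7 and 33.7 TPM with deltaNp63. EIF2AK2, the kinase PKR that halts translation on sensing double-stranded RNA, was at 65.2% of its ASPC1 Mock mean with TAp63 and 65.6% with deltaNp63. HELZ2, SAMD9, DDX60, PNPT1 and TDRD7 had between 54.8% and 57.7% of Mock with deltaNp63.

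ADAR, which edits adenosine to inosine in double-stranded RNA, and ZC3HAV1, the zinc-finger antiviral protein ZAP that binds CpG-rich RNA, were described by isoform because each makes an isoform known to respond to interferon. ADAR as a whole stood at 149 and 154 TPM in ASPC1 Mock, 93.8 and 114 TPM with TAp63 and 71.7 and 91.4 TPM with deltaNp63. The interferon-inducible p150 product came from ADAR-202 and ADAR-208, with annotated 5′ ends at 154608186 and 154608170 on chromosome 1 (hg38) and 1226 and 1200 codons. Together they stood at 105 and 122 TPM in ASPC1 Mock, 64.3 and 86 TPM with TAp63 and 47.9 and 61.3 TPM with deltaNp63. The p150 values did not overlap between the groups, and the deltaNp63 mean was 48% of Mock. The shorter p110 product, with its 5′ end at 154627968 and 931 codons, stood at 24.4 and 16.3 TPM in ASPC1 Mock, 19.9 and 15.5 TPM with TAp63 and 15.5 and 17.3 TPM with deltaNp63. The p110 values overlapped, and the deltaNp63 mean was 80.6% of Mock. As a share of all ADAR transcript TPM in ASPC1, p150 was 70.6% and 79.2% in Mock, 68.5% and 75.5% with TAp63 and 66.9% and 67.1% with deltaNp63. The p110 share was 16.4% and 10.6% in Mock, 21.2% and 13.6% with TAp63 and 21.6% and 19% with deltaNp63. The TAp63 shares overlapped those of Mock for both products, and the deltaNp63 shares did not.

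In PANC1 the isoforms of ADAR ran otherwise. There p150 stood at 96.5 and 93.9 TPM in Mock, 126 and 110 TPM with TAp63 and 108 and 108 TPM with deltaNp63, so every construct library was above both Mock libraries. The p110 product stood at 52.3 and 52.6 TPM in PANC1 Mock, 29.8 and 40.6 TPM with TAp63 and 24.1 and 58.3 TPM with deltaNp63, with the deltaNp63 libraries on either side of Mock. ADAR as a whole stood at 173 and 169 TPM in PANC1 Mock, 177 and 170 TPM with TAp63 and 153 and 195 TPM with deltaNp63. The split of reads between transcripts that share most of their exons is an estimate by the authors' quantification, so isoform values are given as a description. Single transcripts were also fitted by limma, with adjustment over 51675 transcript rows. With deltaNp63 in ASPC1 ADAR-202 of p150 passed (adjusted p = 0.0462). ADAR-208 of p150 (0.16) and the p110 transcript (0.839) did not.

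ZC3HAV1 as a whole stood at 60.3 and 62.8 TPM in ASPC1 Mock, 40.6 and 44.9 TPM with TAp63 and 34 and 36 TPM with deltaNp63. Its short product, ZC3HAV1-204 with 699 codons and known to be raised by interferon, stood at 42.9 and 48.2 TPM in ASPC1 Mock, 30.1 and 35.5 TPM with TAp63 and 24.4 and 28.2 TPM with deltaNp63. The long product, with 902 codons, stood at 8.17 and 7.83 TPM, 3.96 and 4.93 TPM and 3.6 and 3.05 TPM in the same order. Both products were therefore lower with each construct: the deltaNp63 means were 57.7% of Mock for the short and 41.6% for the long form. By limma on transcript rows the long form passed with deltaNp63 in ASPC1 (adjusted p = 0.0451). The short form did not (0.118). In PANC1 ZC3HAV1 as a whole stood at 107 and 121 TPM in Mock, 107 and 102 TPM with TAp63 and 109 and 140 TPM with deltaNp63. The short form took between 71.2% and 79.2% of ZC3HAV1 in ASPC1 libraries and between 48.9% and 59.9% in PANC1 libraries. The plot of isoforms shows both genes.

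**Figure D3:**
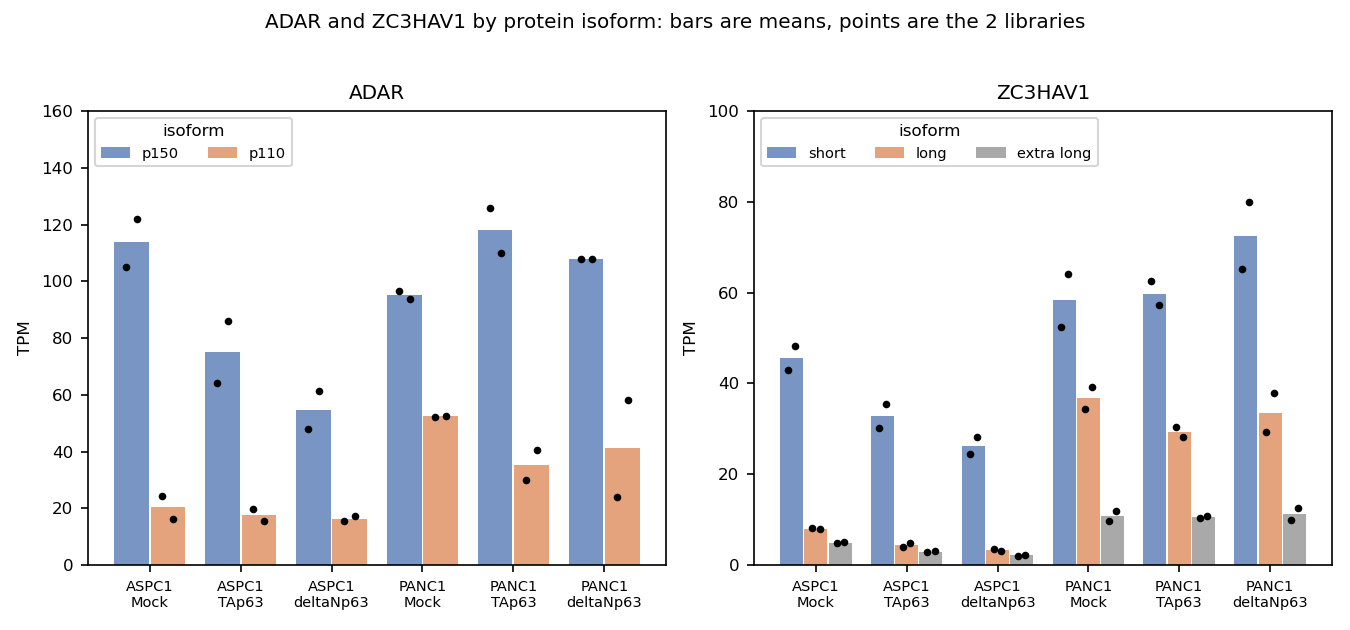
TPM of ADAR (left; p150 and p110) and ZC3HAV1 (right; short, long and extra long) products in the 6 groups; bars are means and black points are the 2 libraries of a group. In ASPC1 the p150 bar goes from 114 TPM in Mock to 54.6 TPM with deltaNp63 while the p110 bar goes from 20.4 to 16.4 TPM; in PANC1 p150 is 95.2 TPM in Mock and 108 TPM with deltaNp63.

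The ADP-ribosyl transferases and ubiquitin ligases were the most uniform role group. All 6 fell with deltaNp63 in ASPC1, with log2 fold changes from -1.34 to -1.16, and 5 fell with TAp63, all but PARP10. PARP9 works in a complex with the ubiquitin ligase DTX3L, and the 2 genes stood at 39.6% and 42.4% of their Mock means with deltaNp63. RNF213, a very large ubiquitin ligase that coats bacteria and lipid droplets, stood at 19.7 and 19.1 TPM in ASPC1 Mock, 11.5 and 10.5 TPM with TAp63 and 7.36 and 6.79 TPM with deltaNp63. Its groups did not overlap, and its log2 fold change with deltaNp63 was -1.34 ± 0.107. PARP14, a transferase that acts in interferon and interleukin signalling, changed least, from 37.8 and 37.4 TPM in ASPC1 Mock through 21.8 and 23.8 TPM with TAp63 to 14.3 and 18.5 TPM with deltaNp63 (log2 fold change -1.16 ± 0.114). In PANC1 RNF213 stood at 50.8 and 53.9 TPM in Mock, 55.2 and 55.3 TPM with TAp63 and 47.7 and 58.2 TPM with deltaNp63. PARP14 stood at 137 and 137 TPM in PANC1 Mock, 134 and 128 TPM with TAp63 and 127 and 141 TPM with deltaNp63. PARP10 and PARP12, which modify proteins with single ADP-ribose units, had 41.8% and 41.7% of their ASPC1 Mock means with deltaNp63.

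Of the 4 TRIM genes, TRIM21 and TRIM22 fell with TAp63 in ASPC1 and all 4 fell with deltaNp63. TRIM22, which represses viral transcription, stood at 3.29 and 4.12 TPM in ASPC1 Mock, 0.644 and 1.39 TPM with TAp63 and 0.951 and 1.04 TPM with deltaNp63. Both construct groups were below Mock and overlapped each other, with log2 fold changes of -1.24 ± 0.181 and -1.23 ± 0.181; the pseudocount understates changes at this level, and the means were 27.5% and 26.8% of Mock. In PANC1 TRIM22 stood at 38.3 and 43.2 TPM in Mock, 42.4 and 34.1 TPM with TAp63 and 42.7 and 43 TPM with deltaNp63. TRIM5, the retroviral capsid restriction factor, changed least, with 31.8 and 37.1 TPM in ASPC1 Mock, 26.7 and 28.7 TPM with TAp63 and 27.1 and 21.6 TPM with deltaNp63. The annotated gene model of TRIM5 overlaps TRIM22 on the other strand, and whether the quantification used strand is not given in the sources used here, so the split of their reads is uncertain. In PANC1 TRIM5 stood at 62.7 and 61.5 TPM in Mock, 58.4 and 52.2 TPM with TAp63 and 57.8 and 63.8 TPM with deltaNp63. TRIM14, a MAVS adaptor, and TRIM21, a cytosolic antibody receptor, had 43.9% and 53.9% of their ASPC1 Mock means with deltaNp63.

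Among the nuclear proteins, SP110 fell with TAp63 in ASPC1 and all 4 fell with deltaNp63. SP110, a nuclear body protein, stood at 110 and 118 TPM in ASPC1 Mock, 56.3 and 62.9 TPM with TAp63 and 47.6 and 47.9 TPM with deltaNp63. SP100, its relative in PML bodies, changed least: 197 and 208 TPM in Mock, 146 and 136 TPM with TAp63 and 166 and 127 TPM with deltaNp63. The SP110 groups did not overlap, whereas the construct groups of SP100 overlapped each other below Mock, with log2 fold changes of -0.52 ± 0.117 with TAp63, which did not pass, and -0.48 ± 0.117 with deltaNp63. In PANC1 SP110 stood at 81.1 and 83 TPM in Mock, 77.4 and 74.5 TPM with TAp63 and 75.2 and 88 TPM with deltaNp63. SP100 stood at 114 and 123 TPM in PANC1 Mock, 117 and 107 TPM with TAp63 and 114 and 121 TPM with deltaNp63. PML, the scaffold of these bodies, and IFI16, a sensor of nuclear DNA, had 45.6% and 46.4% of their ASPC1 Mock means with deltaNp63.

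The guanylate-binding GTPases, which attack pathogen vacuoles and are best known as targets of interferon gamma, changed least as a group, with medians of -0.36 with TAp63 and -0.49 with deltaNp63. GBP1 stood at 10.4 and 10.7 TPM in ASPC1 Mock, 6.19 and 6.09 TPM with TAp63 and 3.9 and 5.16 TPM with deltaNp63. It was the member of the 3 that passed, with deltaNp63 (-1.07 ± 0.13). GBP2 stood at 10.3 and 9.59 TPM in ASPC1 Mock, 9.37 and 9.35 TPM with TAp63 and 7.55 and 9.29 TPM with deltaNp63. Its log2 fold changes of -0.08 ± 0.122 and -0.22 ± 0.122 were the smallest of all members, and the first became 0.06 after median centring. GBP3 stood at 35 and 32.6 TPM in ASPC1 Mock, 26.3 and 25.8 TPM with TAp63 and 24.5 and 23.2 TPM with deltaNp63; its groups did not overlap, and its log2 fold changes of -0.36 ± 0.142 and -0.49 ± 0.142 did not pass. These genes were low in PANC1. GBP1 stood there at 2.93 and 3.12 TPM in Mock, 3.1 and 2.82 TPM with TAp63 and 3.38 and 3.8 TPM with deltaNp63. GBP2 stood at 0.645 and 0.667 TPM in PANC1 Mock, 0.713 and 0.797 TPM with TAp63 and 0.961 and 0.882 TPM with deltaNp63. GBP3 stood at 10.7 and 13.3 TPM in PANC1 Mock, 10.3 and 9.27 TPM with TAp63 and 10.7 and 14.3 TPM with deltaNp63. GBP1 and GBP2 were thus slightly above Mock in both PANC1 deltaNp63 libraries, by amounts that did not pass. The GBP genes are close paralogues in a cluster, so reads may be shared between them.

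All 3 apolipoprotein L genes fell with deltaNp63 in ASPC1, and APOL2 fell with TAp63. APOL1, a secreted and intracellular channel-forming protein that lyses trypanosomes, stood at 12.9 and 10.6 TPM in ASPC1 Mock, 4.89 and 7.01 TPM with TAp63 and 3.22 and 4.61 TPM with deltaNp63 (log2 fold change -1.38 ± 0.19). APOL2 stood at 21.4 and 24.6 TPM in ASPC1 Mock, 14.9 and 14.6 TPM with TAp63 and 9.07 and 9.41 TPM with deltaNp63 (-1.23 ± 0.107). APOL6 stood at 22.5 and 21.7 TPM in ASPC1 Mock, 15.5 and 15.4 TPM with TAp63 and 9.43 and 13.9 TPM with deltaNp63 (-0.89 ± 0.154). None of the 3 overlapped between the ASPC1 groups. APOL1 and APOL2 are divergent neighbours whose outermost 5′ ends in GENCODE v44 lie 13117 bases apart. In PANC1 APOL1 stood at 22.9 and 26.6 TPM in Mock, 25.6 and 20.8 TPM with TAp63 and 22.1 and 22.8 TPM with deltaNp63. APOL2 stood at 67.6 and 71.5 TPM in PANC1 Mock, 69.6 and 66.1 TPM with TAp63 and 71.2 and 85.4 TPM with deltaNp63. APOL6 stood at 22.9 and 21.7 TPM in PANC1 Mock, 22.6 and 23.1 TPM with TAp63 and 21.4 and 25.6 TPM with deltaNp63. APOL1 was the single member with both PANC1 deltaNp63 libraries below both Mock libraries, an order found for 16.3% of all tested genes.

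The last role group holds 8 proteins of cell death, membranes, chaperoning and signalling, all of which fell with deltaNp63 in ASPC1 and 6 of which fell with TAp63. XAF1, an antagonist of the apoptosis inhibitor XIAP, stood at 57.2 and 59.5 TPM in ASPC1 Mock, 18.7 and 25.8 TPM with TAp63 and 13.8 and 16.3 TPM with deltaNp63 (-1.89 ± 0.144 with deltaNp63). In PANC1 XAF1 stood at 46.8 and 43 TPM in Mock, 42.8 and 41 TPM with TAp63 and 41.7 and 47.1 TPM with deltaNp63. The 3 ASPC1 groups of XAF1 did not overlap; in PANC1 both TAp63 libraries were below Mock and the deltaNp63 libraries lay on either side of it. SHISA5 and PLSCR1 had the smallest changes, each with -0.68 with deltaNp63. SHISA5, an endoplasmic reticulum protein linked to p53-dependent apoptosis, stood at 218 and 242 TPM in ASPC1 Mock, 146 and 182 TPM with TAp63 and 134 and 153 TPM with deltaNp63. PLSCR1, a membrane phospholipid scramblase, stood at 400 and 407 TPM in ASPC1 Mock, 285 and 270 TPM with TAp63 and 263 and 241 TPM with deltaNp63. It was the most abundant member in all 6 groups. In PANC1 SHISA5 stood at 178 and 183 TPM in Mock, 202 and 198 TPM with TAp63 and 189 and 195 TPM with deltaNp63. PLSCR1 stood at 539 and 500 TPM in PANC1 Mock, 494 and 465 TPM with TAp63 and 533 and 513 TPM with deltaNp63. RTP4, a receptor transporter whose 2 promoter cores are printed above, and EPSTI1, first described in tumour epithelium beside stroma, had 23% and 35.7% of their ASPC1 Mock means with deltaNp63. LAMP3, a lysosomal membrane glycoprotein, and the partner proteins NMI and IFI35 had 40.4%, 48% and 56.4%.

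TAp63 and deltaNp63 were then compared with each other in ASPC1, using the libraries on which the members were chosen. Of the 42 members 39 had a TAp63 mean above the deltaNp63 mean on the log2 scale. The median difference was 0.30 (all tested genes 0.04). DDX60L, TRIM22 and SP100 had the opposite sign, and after median centring 5 members had it. The share of all tested genes with either sign is not given here. Each deltaNp63 library was below each TAp63 library for 30 members, against 19.6% of all tested genes, and the full order of Mock above TAp63 above deltaNp63 held for the same number of members and for 7% of all tested genes. The largest differences were 0.79 ± 0.203 for CMPK2, 0.62 ± 0.107 for APOL2 and 0.60 ± 0.163 for PARP10. By limma 0 members passed the adjusted threshold, while 25 had an unadjusted p under 0.05, and 0.0203% of all tested genes passed. Without deltaNp63 replicate 2, 11 members passed, all higher with TAp63, in a fit in which 1025 of all 14767 genes passed (813 higher and 212 lower with TAp63), and without any other replicate of these groups 0 passed. TP63 abundance also differed between these groups, as given above, and its part in the difference was not tested.

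PANC1 gave the comparison that the choice of members did not use. By limma 0 of 42 members passed with TAp63, 0 with deltaNp63 and 0 between the constructs, where 0.00677%, 0.0406% and 0.0271% of all tested genes passed, and 0 members had an unadjusted p under 0.05 in any of the 3 comparisons. The median log2 fold change was -0.05 with TAp63 (range -0.26 to 0.21) and 0.02 with deltaNp63 (range -0.13 to 0.29), beside 0.00 and -0.02 for all tested genes. The 95% confidence intervals of single members reached from -0.59 to 0.70 with TAp63 and from -0.56 to 0.85 with deltaNp63, so changes smaller than this were not excluded gene by gene. With few calls over the whole table in PANC1, the absence of calls among members is close to the background. The count was 0 under every other setting tried and without any replicate. The members stood between 81.6% and 116% of Mock with TAp63, and between 90.6% and 140% with deltaNp63, where the upper end is GBP2 at under 1 TPM.

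The order of the PANC1 libraries was described as well, since no shift passed. Each TAp63 library was below each Mock library for 17 members, among them EIF2AK2, RSAD2, PARP9, SP110 and XAF1, against 20.4% of all tested genes. Each deltaNp63 library was above each Mock library for 7 members (CMPK2, TYMP, PARP12, GBP1, GBP2, SHISA5 and IFI35), against 10.8% of all tested genes. Between the constructs, 35 of 42 members were lower with TAp63 than with deltaNp63, with a median difference of -0.07 (all tested genes 0.02) and a range from -0.33 for RSAD2 to 0.08 for HELZ2. That count was 21 without deltaNp63 replicate 2 and 28 without TAp63 replicate 2, so it rested on single libraries. The share of all tested genes lower with TAp63 is not given here. The comparison of fold changes shows both lines on the same axis.

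**Figure D4:**
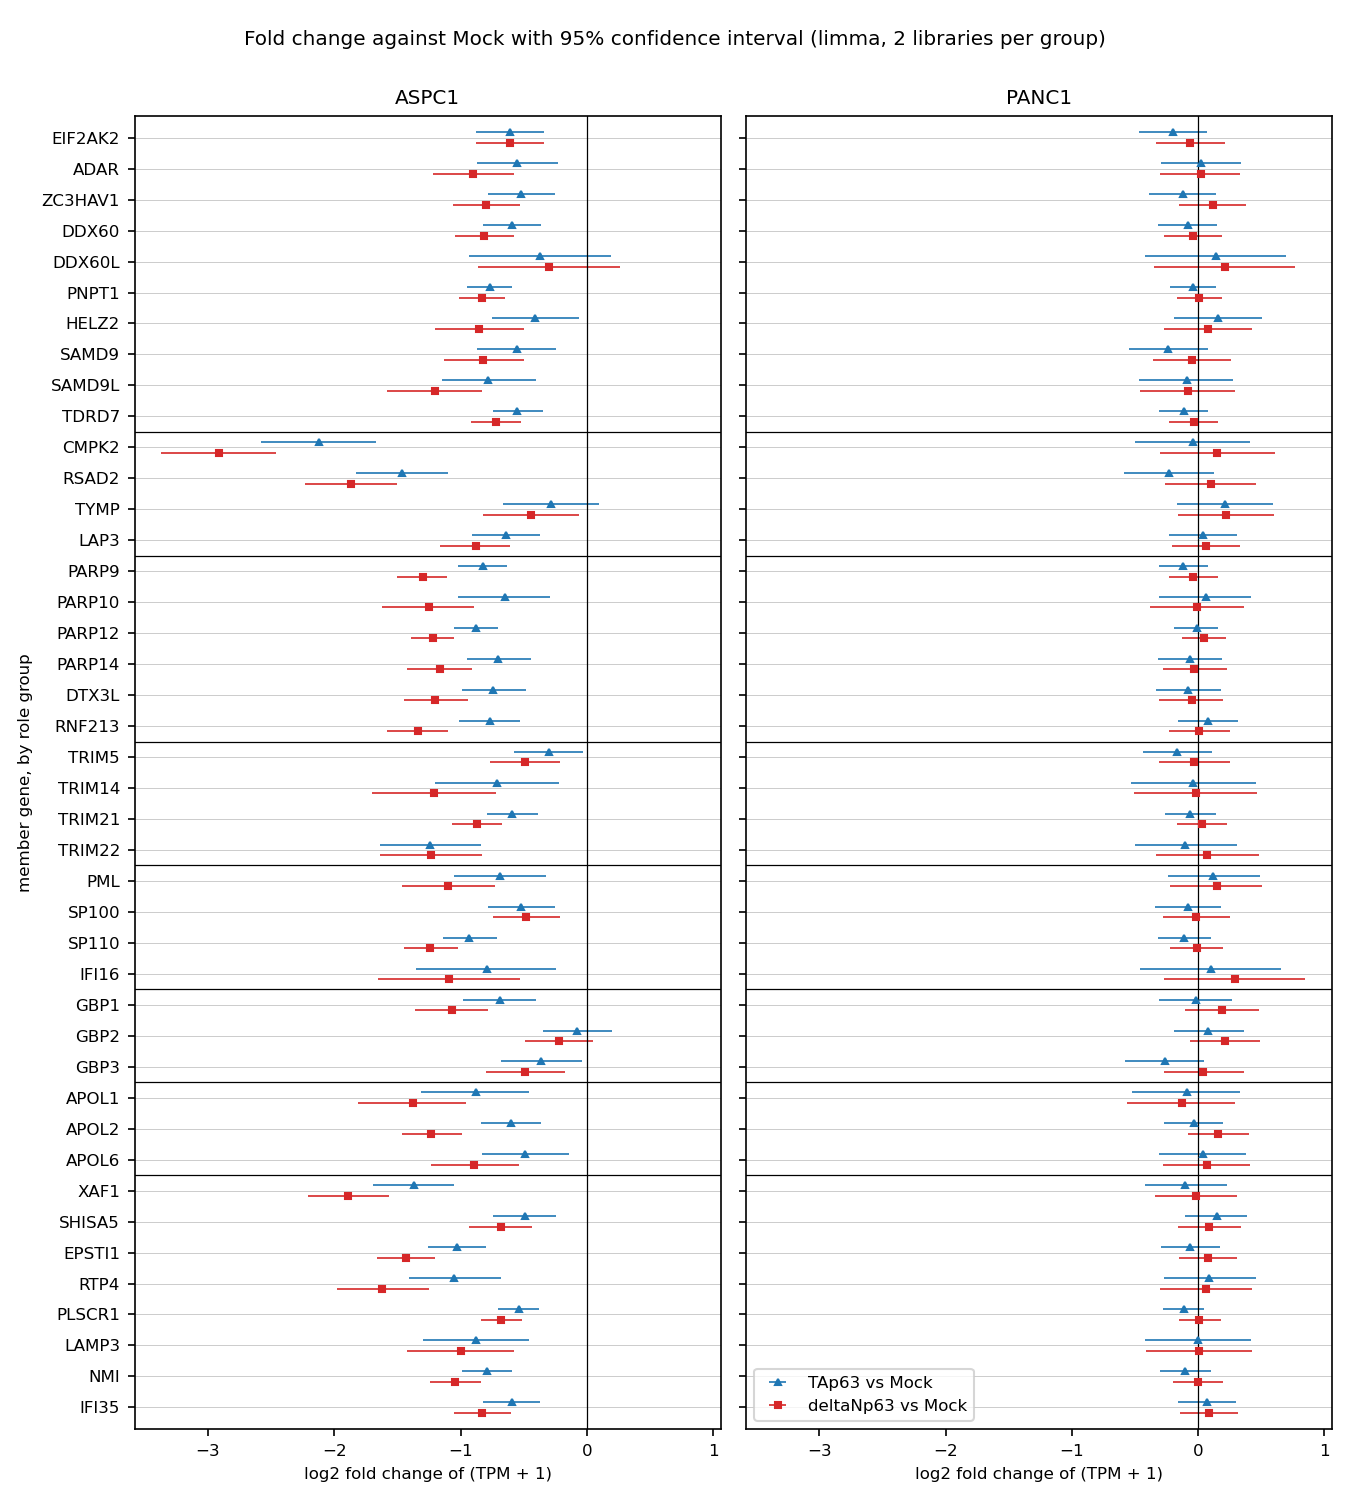
Log2 fold change of (TPM + 1) against Mock for the 42 members in ASPC1 (left) and PANC1 (right), with 95% confidence intervals from limma; TAp63 is in blue triangles and deltaNp63 in red squares, and lines separate the 8 role groups. In ASPC1 all points lie left of 0, from -2.91 for CMPK2 with deltaNp63 to -0.08 for GBP2 with TAp63; in PANC1 they lie between -0.26 and 0.29 and every interval includes 0.

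The effect of a construct was set against its effect in the other line, again as a description because the ASPC1 values enter it. The PANC1 effect minus the ASPC1 effect was above 0 for all 42 members with each construct. The medians were 0.67 for TAp63 (all tested genes 0.09) and 1.02 for deltaNp63 (all tested genes 0.11). For TAp63 2 members were below 0 after median centring and 1 after quantile normalization. The share of all tested genes above 0 is not given here. By limma 2 members passed for TAp63, CMPK2 and PARP12, against 0.0745% of all tested genes, and 20 passed for deltaNp63, against 0.562%. CMPK2 had the largest differences, 2.08 for TAp63 and 3.07 for deltaNp63. The TAp63 count was 0 with a replicate block (lowest adjusted p = 0.0501), without the trend (0.0807) and after quantile normalization (0.0518). It also changed with single libraries: 3 members passed without ASPC1 TAp63 replicate 2, and 0 passed without any other single replicate of either line's Mock or TAp63 groups. For deltaNp63 32 members passed without ASPC1 deltaNp63 replicate 2, in a fit in which 2196 of all 14767 genes passed (1791 of them higher in PANC1), and between 10 and 11 passed without either ASPC1 Mock replicate, either PANC1 Mock replicate or PANC1 deltaNp63 replicate 2.

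The lines were also set side by side without a construct. In Mock cells 23 members (54.8%) were higher in both PANC1 than in both ASPC1 libraries, and 15 (35.7%) were lower. The other 4 overlapped (PARP10, APOL6, RTP4 and IFI35). Among all tested genes 52.9% were higher and 34.7% lower, so the split of the members was close to the background. On the log2 scale TRIM22 (3.15), LAMP3 (2.56) and PARP14 (1.83) were the furthest above ASPC1, and IFI16 (-3.31), GBP2 (-2.72) and DDX60L (-2.31) the furthest below. All 3 guanylate-binding proteins and SAMD9, SAMD9L, DDX60 and DDX60L were higher in ASPC1, while all 4 TRIM genes, PARP9, PARP12, PARP14, DTX3L and RNF213 were higher in PANC1. No test was made between the Mock groups.

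Other genes of the interferon pathway were taken from a list of 52, of which 47 were tested. In ASPC1 26 of these fell with TAp63 and 32 with deltaNp63, none rose, and in PANC1 0 passed with either construct. The OAS and IFIT genes, the MX and IFI genes and the tested genes of ISG15 conjugation all fell with both constructs. On the log2(TPM + 1) scale the largest falls of these 3 roles with deltaNp63 were those of OAS2 (-2.71), MX2 (-2.61) and UBE2L6 (-2.45). The smallest on that scale were those of IFIT5 (-1.14), IFI27 (-0.89) and UBA7 (-1.65). The pseudocount changes this order for low genes: UBA7 had 19.3% of its Mock mean, against 27.4% for HERC5 and 27.5% for HERC6. By that measure IFI44L (14.2%) was below MX2 (14.9%), and OASL (44.2%) was above IFIT5 (42.8%). Among transcription factors STAT2, IRF1 and IRF7 fell with deltaNp63, with STAT2 at -0.94, and IRF9 had the smallest change at -0.25. The inhibitor USP18 fell with both constructs (-1.71 with deltaNp63), while SOCS3 had -0.29. Of the nucleic acid sensors 6 of 7 fell with deltaNp63, led by RIGI (-1.33), and MAVS had -0.32. The receptors and receptor kinases did not pass: with deltaNp63 their values ran from -0.04 for IFNLR1 to 0.22 for IL10RB, and from -0.41 for TYK2 to 0.59 for JAK2. ISG15 itself was not analysed here.

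The interferon genes themselves differed in level between the lines. IFNL1, the gene of an interferon lambda, stood at 5.99 and 7.31 TPM in ASPC1 Mock, 2.69 and 3.53 TPM with TAp63 and 1.83 and 2.46 TPM with deltaNp63. In PANC1 it stood at 778 and 881 TPM in Mock, 973 and 899 TPM with TAp63 and 1103 and 1221 TPM with deltaNp63. IFNL1, IFNL2 and IFNL3 fell in ASPC1 with each construct, with IFNL3 at -1.34 with deltaNp63, and the 4 tested interferon genes had positive values in PANC1 with deltaNp63, from 0.49 to 0.54, none of which passed. IFNB1 stood between 7.81 and 15.1 TPM in PANC1 and at most at 0.9 TPM in ASPC1. IFNL2 and IFNL3 are near-identical copies, so their separate values are uncertain. The part of these ligands in the members' values was not tested.

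The members' positions show which of them share neighbourhoods. Of the 42 gene bodies 22 overlap another annotated gene (GENCODE v44, hg38). Pairs of members with at most 100000 bases between them were GBP1, GBP2 and GBP3 on chromosome 1, CMPK2 and RSAD2 on chromosome 2, PARP9 and DTX3L on chromosome 3, DDX60 and DDX60L on chromosome 4, SAMD9 and SAMD9L on chromosome 7, TRIM5 and TRIM22 on chromosome 11, and APOL1 and APOL2 on chromosome 22. Divergent PARP9 and DTX3L had near values with deltaNp63 (-1.30 ± 0.0878 and -1.20 ± 0.114), and so had APOL1 and APOL2 (-1.38 ± 0.19 and -1.23 ± 0.107). CMPK2 and RSAD2, also divergent, had -2.91 ± 0.203 and -1.87 ± 0.162. Neighbours on the same strand also had unequal values: DDX60 had -0.81 ± 0.103 beside -0.30 ± 0.25 for DDX60L, and GBP1 had -1.07 ± 0.13 beside -0.22 ± 0.122 for GBP2. Neighbours are not independent members of the set.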

How the data were processed

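Total RNA of 12 libraries was made into stranded poly(A) libraries, per the labels' protocols. The authors deposited transcript abundances in TPM for 153329 Ensembl transcripts; the quantification program, genome build and annotation are not given in the sources used here. Each column sums to 1000000, so depth is unknown and only replicates measure error. Columns were matched to samples by title. Transcripts were paired with genes through GENCODE v44 (139819 rows, 91.2%, holding 89.6% to 90.5% of a library's TPM) and summed.

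The 14767 genes that reached 1 TPM in 2 or more libraries were analysed as log2(TPM + 1), which understates changes of low genes, in 1 limma 3.58.1 model (lmFit, contrasts.fit, eBayes with trend; R 4.3.3, package data.table, version 1.17.8) with a mean per group and 6 residual degrees of freedom; p-values were two-sided. Python 3.11.15, pandas 2.3.3, numpy 2.4.6 and matplotlib 3.10.9 made the other tables and plots. The code was tested on simulated data. Promoter sequences are from RefSeq (GRCh38.p14).

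The members, role groups and lists were chosen with earlier results of these data known. Values per library are given for the members with the largest and smallest change with deltaNp63 in ASPC1 in each role group (all members of groups of 3), and for ADAR and ZC3HAV1; other members are given as a percentage of Mock. Of the other pathway genes TP63 and, in each role, the largest fall and largest rise (where none rose, the smallest fall) are named; STAT2, IRF1, IRF7, IFNL1 and IFNL2 were added after their values were seen. Some genes of the marker and pathway lists are not reported here. Alternatives were limma without trend, 2 scalings, 2 filters, a pseudocount of 0.1, smaller models, a replicate block and leaving out each replicate.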

Additional observations from a re-analysis of the deposited data

Results flagged for a closer look

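The constructs' effects differed between the cell lines for some members by the test of that difference (limma on all 12 libraries), which uses the ASPC1 values the members were chosen by and so only describes them. For TAp63 2 members passed, with PANC1 minus ASPC1 differences in log2 fold change of 2.08 for CMPK2 and 0.86 for PARP12; 0 passed with a replicate block, without the trend or after quantile normalization. For deltaNp63 20 members passed. Their differences were 3.07 for CMPK2, 1.97 for RSAD2, 1.87 for XAF1, 1.68 for RTP4, 1.51 for EPSTI1, 1.39 for APOL2 and 1.35 for RNF213. They were 1.27 for PARP12, 1.26 for PARP9 and for GBP1, 1.23 for SP110, 1.14 for DTX3L and for PARP14, and 1.03 for NMI. The smallest were 0.95 for LAP3, 0.92 for IFI35, 0.90 for TRIM21, 0.84 for PNPT1, and 0.69 for TDRD7 and for PLSCR1. Groups of 2 libraries allow no outlier test.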

How the results depend on the processing

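In ASPC1 the TAp63 count of 20 was 13 without the low-value filter, 0 with only the groups compared, 0 with only the 6 ASPC1 libraries and 9 to 13 when 1 replicate was left out; the deltaNp63 count of 38 was 0, 0 and 24 to 35 under the last 3. The cause was not tested beyond the fewer libraries that share the spread. TAp63 against deltaNp63 in ASPC1 gave 0 to 11 when 1 replicate was left out. The TAp63 difference between lines, 2, was 0 without trend, 0 by quantile normalization, 1 by median centring, 3 without the filter, 6 at a mean of at least 5 TPM, 1 with a pseudocount of 0.1, 0 with the replicate block and 0 to 3 when 1 replicate was left out; the cause was not tested. The deltaNp63 difference, 20, was 10 to 32 when 1 replicate was left out. Counts in PANC1 stayed at 0 under all settings. With deltaNp63 in ASPC1 the log2 fold changes of 3 transcripts had the opposite sign to their gene but did not pass by limma: ADAR-209 (0.07 ± 0.282 SE, adjusted p = 0.987), ADAR-207 (0.40 ± 0.358, 0.704), both without a full coding sequence, and ZC3HAV1-202 (0.12 ± 0.509, 0.988).

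In the sample descriptions same-numbered replicates share a number, and whether they also shared a batch is unknown. The correlations of their deviations were 0.0991, -0.0945 and 0.293 in ASPC1 (TAp63 with Mock, deltaNp63 with Mock, TAp63 with deltaNp63). In PANC1 they were 0.0223, 0.112 and -0.0431. With the replicate block 18 members fell with TAp63 and 37 with deltaNp63 in ASPC1, and 22 passed for the deltaNp63 difference. Unknown depth and 2 libraries per group limit small changes, above all for members near 1 TPM (TRIM22 and GBP2).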
